A study of Homo sapiens with 15 samples.

Results

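The 50 genes described here drive or mark the cell division cycle and DNA replication. They were taken by symbol from the 60675 genes of the deposited tables, each matched to 1 Ensembl identifier. The matching uses no measured value, but the members were chosen with earlier results of these data known. All 50 were expressed highly enough to be among the 19012 genes tested. They were read in H9, a human embryonic stem cell line of wild-type genotype, collected on day 7 of differentiation toward bone-forming cells. Every culture began in serum medium and from day 5 was given ascorbic acid, β-glycerophosphate and vitamin D3, and particles or vehicle were present from day 0. The 5 groups of 3 libraries were SRM IC50 (a NIST standard reference particle material at 5.9 µg/mL), SRM IC25 (the same material at 0.003 µg/mL), FPM IC50 (fine particulate matter at 1.4 µg/mL), FPM IC25 (that matter at 0.00062 µg/mL) and UNT, the vehicle control with DMSO at 0.1%. The labels set IC25 and IC50 as inhibitory concentrations based on protein, so particles at the same level differ in mass per volume.

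Cells pass from G1 through S, G2 and mitosis. In G1 the licensing factors CDC6 and CDT1 load the MCM2-7 helicase onto replication origins, cyclin D kinases phosphorylate the retinoblastoma protein RB1, and freed E2F factors switch on the genes of S phase. Later, MYBL2 and FOXM1 act on genes for cyclin B, spindle motors and the checkpoint, and the anaphase-promoting complex with CDC20 ends mitosis by marking proteins for destruction. Pluripotent stem cells have a short G1 and high levels of many, not all, of these transcripts, and many differentiating cells lengthen G1.

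The samples are bulk RNA from 1 cell line, so fewer cells of a type and less RNA per cell cannot be told apart. The labels do not say that libraries of a group came from separate cultures, so a p-value measures the spread among these libraries alone, which may be technical. Total counts ran from 9.34 to 58.2 M (M, mega) per library. Antisense genes took 0.942% to 1.499% of counts in the 6 FPM libraries, against 0.274% to 0.319% in the other 9, and whether reads were counted by strand is not given in the sources used here. Of the 50 genes, 18 have exons that overlap an exon of a gene on the other strand and 17 lie more than 5 kb from any such gene. Osteoblast markers were mixed: SPP1, a bone matrix protein, lay between 101 and 224 FPKM (counts scaled to gene length and library size), whereas IBSP, another matrix protein, was at 0 in 13 of 15 libraries and BGLAP (osteocalcin) did not exceed 0.458 FPKM. Of 10 pluripotency markers, the factors POU5F1 and SOX2 were still present in every library, at 49.3 to 255 FPKM and 31.0 to 106 FPKM. Others of the 10 were low, with NANOG at 0.656 to 3.57 FPKM, PRDM14 at 0.503 to 10.8 FPKM and UTF1 at 0 to 3.95 FPKM.

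Promoter sequence was available in RefSeq (GRCh38.p14) for 39 of the 50 genes. The 4 windows printed here belong to genes at successive steps of the cycle, MCM6 and CDC6 in licensing, CDK1 at entry to mitosis and TOP2A in chromosome structure, whose levels differed between the SRM doses. Each window holds the 250 bases before the transcription start, read 5′ to 3′ on the gene's strand. Capitals mark 3 kinds of short match on either strand: an E2F-type site (TTTCGCGC or TTTGGCGC), a cell cycle homology region or CHR (TTTGAA or TTTAAA) and a CCAAT box (CCAAT). The windows lie at chr2:135876444-135876693 (minus strand), chr17:40287629-40287878 (plus), chr10:60778228-60778477 (plus, one of 2 listed starts) and chr17:40417897-40418146 (minus).
MCM6: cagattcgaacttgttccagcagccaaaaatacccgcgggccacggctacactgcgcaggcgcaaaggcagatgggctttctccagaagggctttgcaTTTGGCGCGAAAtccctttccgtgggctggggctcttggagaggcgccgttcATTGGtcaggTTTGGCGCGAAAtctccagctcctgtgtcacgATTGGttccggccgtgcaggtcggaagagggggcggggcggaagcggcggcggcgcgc
CDC6: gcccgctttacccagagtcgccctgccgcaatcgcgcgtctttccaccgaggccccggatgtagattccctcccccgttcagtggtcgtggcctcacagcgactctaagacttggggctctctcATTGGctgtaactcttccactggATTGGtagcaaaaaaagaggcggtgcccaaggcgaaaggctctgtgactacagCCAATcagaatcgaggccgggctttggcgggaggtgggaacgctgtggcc
CDK1: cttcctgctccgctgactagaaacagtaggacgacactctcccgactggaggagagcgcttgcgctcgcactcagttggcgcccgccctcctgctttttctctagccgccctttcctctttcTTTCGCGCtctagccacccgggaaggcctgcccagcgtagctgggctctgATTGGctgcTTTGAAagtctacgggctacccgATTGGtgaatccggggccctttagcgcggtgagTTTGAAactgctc
TOP2A: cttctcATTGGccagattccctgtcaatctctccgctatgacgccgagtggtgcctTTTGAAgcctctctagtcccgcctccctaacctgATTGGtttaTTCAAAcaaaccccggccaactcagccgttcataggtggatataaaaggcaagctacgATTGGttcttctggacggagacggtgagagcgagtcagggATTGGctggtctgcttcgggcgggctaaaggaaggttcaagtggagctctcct
MCM6 held 4 E2F-type matches, in 2 overlapping pairs, and 2 CCAAT boxes, and CDC6 held 3 CCAAT boxes. CDK1 held 1 E2F-type match, 2 CHR matches and 2 CCAAT boxes, and TOP2A held 2 CHR matches and 4 CCAAT boxes. Among the 52 windows of the 39 genes (some genes have several starts), 11.5% held an E2F-type match, 34.6% a CHR match and 67.3% a CCAAT box. Among all 35116 windows of the same length these shares were 0.968%, 21.9% and 32.0%. These are matches of letters, not sites shown to be bound.

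Per gene length, PCNA, the sliding clamp of DNA polymerase, had the highest level of the 50, with a mean of 179.5 FPKM over the 15 libraries. CCNB1 (cyclin B1) followed at 92.8 FPKM, TYMS (thymidylate synthase) at 88.3 FPKM and UBE2C, the ubiquitin-conjugating enzyme of the anaphase-promoting complex, at 87.4 FPKM. The lowest were CCNE2 (cyclin E2) at 1.78 FPKM, E2F2 at 1.72 FPKM and CDKN2A, which encodes the inhibitor p16, at 1.40 FPKM. Among the D cyclins the order was CCND1 at 56.8 FPKM, CCND2 at 21.6 FPKM and CCND3 at 3.90 FPKM, with ranges over libraries of 43.3 to 93.6, 19.0 to 28.2 and 2.63 to 4.83 FPKM that did not overlap.

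Together the 50 genes took 0.784% to 0.842% of all counts in the SRM IC50 libraries, 0.674% to 0.691% in SRM IC25, 0.665% to 0.698% in FPM IC50, 0.680% to 0.714% in FPM IC25 and 0.684% to 0.729% in UNT. The 3 SRM IC50 libraries were above the other 12. Of the 50 genes, 37 had their highest group mean at SRM IC50 and 23 their lowest at FPM IC50. The same shares over all genes tested were not counted, so these numbers do not set the 50 apart from other genes.

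**Figure D1:**
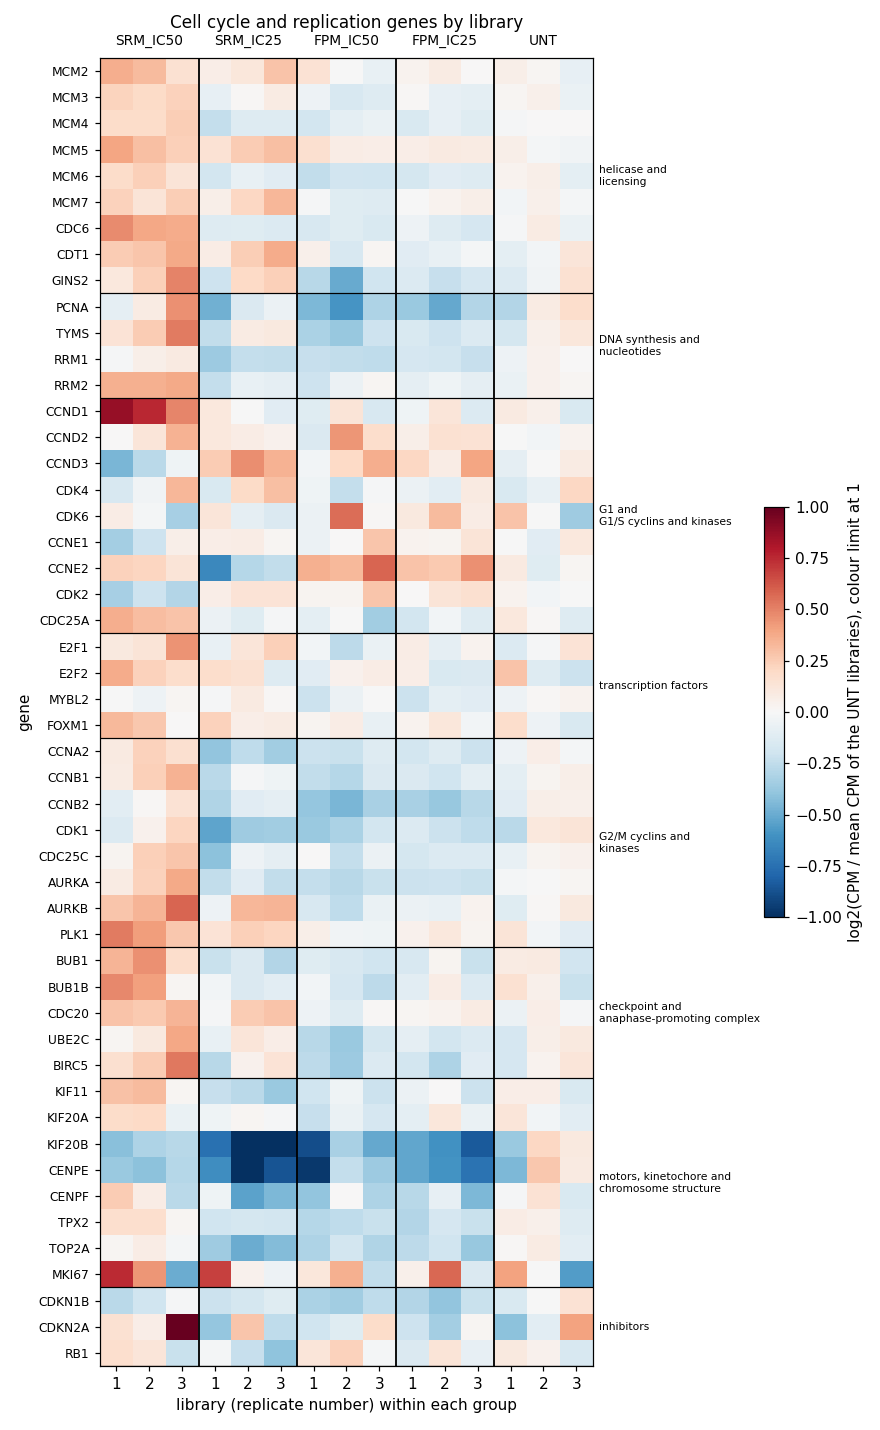
Level of each of the 50 genes (rows, grouped by role) in each of the 15 libraries (columns, 3 per group), as log2 of CPM over the mean CPM of the UNT libraries; red is above and blue below that mean, and colours stop at 1. The SRM IC50 columns are mostly red from MCM2 to TPX2, while CCND3, CDK2, KIF20B and CENPE are blue there, and MKI67 and CDKN2A vary as much within groups as between them.

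The question of the design is how each particle at each level changes these transcripts relative to vehicle, between levels and between particles. Values within a gene are CPM (counts scaled to library size by TMM); differences are log2 fold changes with their standard error (SE), the first-named group over the other; a gene is called higher or lower at an adjusted p under 0.05 over all 19012 genes (edgeR quasi-likelihood test, Benjamini-Hochberg). Comparisons that share a group, UNT above all, are not independent of each other.

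At SRM IC50 the cycle genes that differed from UNT were mostly higher. Of the 50, 11 were higher and 1 lower, that is 22.0% and 2.00%, against 7.96% and 9.59% of all genes tested. Their median log2 fold change was 0.20, against 0.000 over all genes, and 42 of 50 were positive. The 11 were the licensing and helicase genes MCM2, MCM5, CDC6 and CDT1, the ribonucleotide reductase subunit RRM2, cyclin D1 (CCND1), the phosphatase CDC25A, the mitotic kinases AURKB, PLK1 and BUB1, and CDC20. The lower gene was CDK2, the partner of cyclins E and A. The changes were small, with only CCND1 past 0.5 on the log2 scale. CDC6, RRM2, CCND1 and PLK1 were called in every alternative run, and 5 of the 12 calls survived the leaving out of any 1 library. The count was 4 with only the 2 groups in the fit, 19 with log2(FPKM + 0.1), 22 with a replicate block and 24 with the block and GC correction.

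The contrast between the SRM doses was wider. At SRM IC50, 22 of the 50 genes were higher and 2 lower than at SRM IC25 (44.0% and 4.00%), against 13.7% and 13.2% of all genes tested. The median was 0.28 over the 50 and -0.022 over all genes. All 8 G2/M cyclins and kinases, all 8 motor and chromosome genes, all 5 checkpoint genes and all 4 DNA synthesis genes had positive values, and 5, 4, 3 and 3 of them were called. The 2 lower genes were CCND3 and CDK2. Of the 24 calls, 14 stood in every alternative run and 18 without any 1 library.

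For FPM no gene of the 50 was called between IC50 and IC25 by edgeR, none at an unadjusted p under 0.05, and none by DESeq2; among all genes tested 0.00% were higher and 0.0105% lower. With the replicate number as a block, the calls were 0 of the 50 and 34 of all genes in place of 2. The labels do not give such a pairing, and it was inferred from these same libraries (same-number correlations 0.164 to 0.240). The values of the 50 lay between -0.15 and 0.15, with a median of -0.029. The dose difference in SRM was set against that in FPM as 1 contrast of the same fit, added after the other results were known. It was larger for SRM in 15 of the 50 genes and smaller in 2, against 6.59% and 8.01% of all genes tested.

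**Figure D2:**
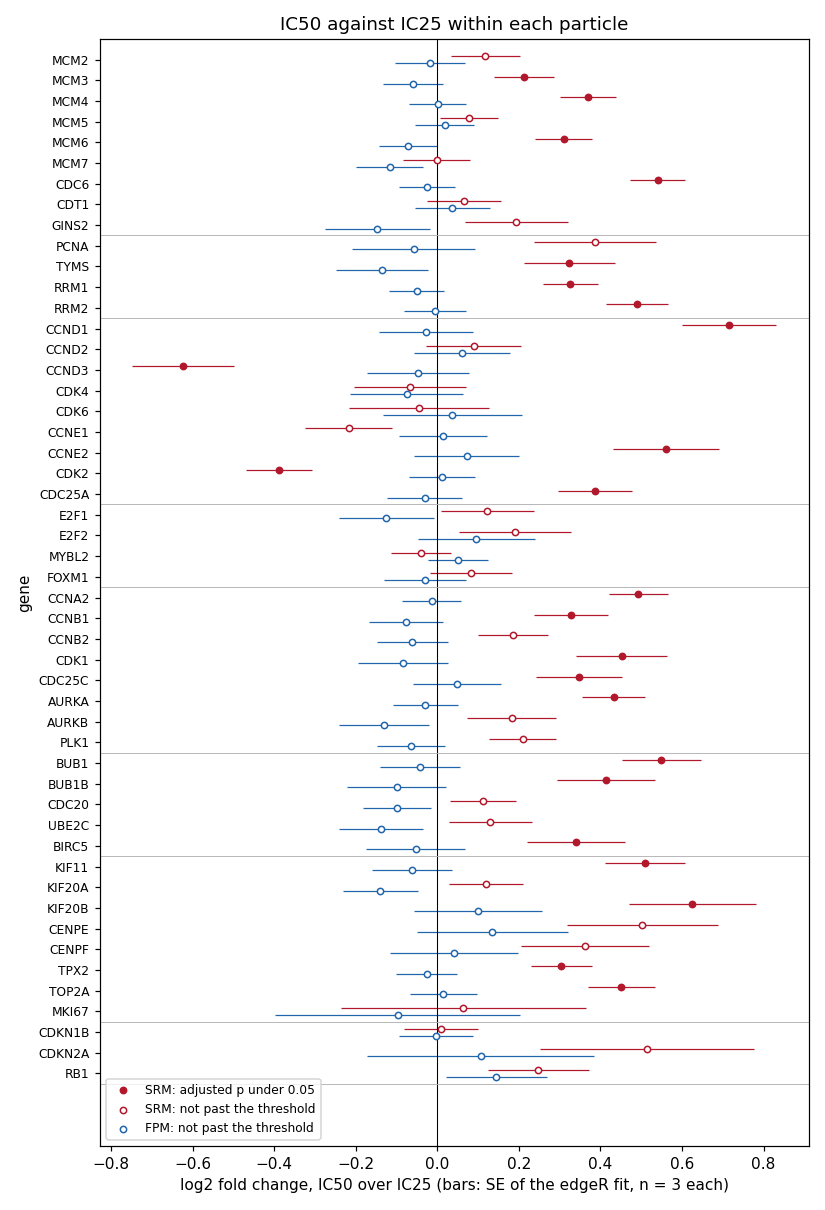
Log2 fold change of IC50 over IC25 for each of the 50 genes, in SRM (red) and FPM (blue), with the SE of the fit (3 libraries per group); filled points have an adjusted p under 0.05. SRM points spread from -0.62 (CCND3) to 0.72 (CCND1), with 24 filled, and FPM points stay within 0.15 of 0, with none filled.

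Markers of cell state also differed at SRM IC50. Their lists were drawn partly from an earlier description of these data, so they were chosen with results known. The 10 pluripotency markers summed to 2846 to 3273 CPM in the SRM IC50 libraries, 1372 to 1423 CPM in SRM IC25, 1341 to 1661 CPM in FPM IC50, 1316 to 1356 CPM in FPM IC25 and 1773 to 1994 CPM in UNT. Of the 10, 8 were higher at SRM IC50 than in UNT. The 14 amnion and trophoblast markers summed to 427 to 469.8 CPM in SRM IC50, 1663 to 1992 CPM in SRM IC25, 1616 to 2453 CPM in FPM IC50, 1951 to 2123 CPM in FPM IC25 and 1687 to 2009 CPM in UNT, and all 14 were lower at SRM IC50 than in UNT. At FPM IC50, 4 of the 14 (CGA, GATA2, CYP19A1 and ERVW-1) were higher than in UNT and none lower, and none was called at SRM IC25 or FPM IC25. At SRM IC25, FPM IC50 and FPM IC25, 4, 3 and 5 of the 10 pluripotency markers were lower than in UNT. The 8 neuroectoderm markers had 5 lower and 1 higher at SRM IC50 and 6 lower at FPM IC25 against UNT. The 10 mesenchyme markers had 4 lower and 1 higher at SRM IC50 and 5 higher at FPM IC25. Of the 10 osteoblast markers, 8 were tested, with 2 higher and 2 lower at SRM IC50 and 1 lower at FPM IC25. Among all genes tested against UNT, 7.96% were higher and 9.59% lower at SRM IC50, and 0.989% and 3.38% at SRM IC25. These shares were 10.8% and 2.77% at FPM IC50, and 10.7% and 3.51% at FPM IC25. The part of these markers in the results for the 50 genes was not tested.

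Of the 9 helicase and licensing genes, 4 were higher at SRM IC50 than in UNT and 4 were higher than at SRM IC25, with CDC6 in both. Each count is 44.4%, against 7.96% and 13.7% of all genes tested. CDC6 had 114.5, 108 and 107 CPM in the SRM IC50 libraries, 75.3, 76.1 and 75.1 CPM in SRM IC25, 74.0, 75.8 and 74.4 CPM in FPM IC50, 79.6, 75.5 and 73.5 CPM in FPM IC25 and 81.7, 87.2 and 78.6 CPM in UNT. The SRM IC50 libraries were above the other 12, and CDC6 was higher than in SRM IC25 (0.54 ± 0.068 (SE), adjusted p = 2.46e-05) and than in UNT (0.41 ± 0.068 (SE), adjusted p = 0.000413). MCM6, a helicase subunit, had 229, 238 and 221 CPM in the SRM IC50 libraries, 178, 191 and 186 CPM in SRM IC25, 169.9, 176 and 176 CPM in FPM IC50, 179, 186 and 184 CPM in FPM IC25 and 206, 210.4 and 188 CPM in UNT. Again the 3 SRM IC50 values were the highest; MCM6 was higher than in SRM IC25 (0.31 ± 0.070 (SE), adjusted p = 0.00357) and gave 0.19 ± 0.070 against UNT, with an adjusted p of 0.0819. GINS2, a subunit of the active replicative helicase, had 86.8, 95.5 and 114 CPM in the SRM IC50 libraries, 70.2, 92.7 and 95.2 CPM in SRM IC25, 66.6, 57.15 and 70.25 CPM in FPM IC50, 73.5, 68.9 and 72.1 CPM in FPM IC25 and 73.6, 79.0 and 89.9 CPM in UNT. Its SRM IC50 range overlapped those of SRM IC25 and UNT and was above that of FPM IC50.

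Of the other 6 genes of this role, MCM2, MCM5 and CDT1 rose against UNT (0.28 ± 0.086, 0.31 ± 0.072 and 0.30 ± 0.091, SE) but did not pass against SRM IC25 (0.12, 0.078 and 0.066). MCM3 and MCM4 passed against SRM IC25 (0.21 ± 0.073 and 0.37 ± 0.069) and missed the threshold against UNT (adjusted p = 0.0539 and 0.0518). MCM7 passed in neither, at -0.002 against SRM IC25 and 0.20 against UNT. MCM2 and MCM7 have exons that overlap a gene on the other strand.

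Of the 4 genes of DNA synthesis and nucleotide supply, 3 were higher at SRM IC50 than at SRM IC25, and RRM2 was also higher than in UNT. As shares this is 75.0% and 25.0%, against 13.7% and 7.96% of all genes tested. RRM2, the regulated subunit of ribonucleotide reductase, had 150.1, 150.3 and 153 CPM in the SRM IC50 libraries, 100.0, 112 and 111 CPM in SRM IC25, 102, 113 and 119 CPM in FPM IC50, 110.5, 114 and 111 CPM in FPM IC25 and 112, 121.5 and 119 CPM in UNT. It was higher at SRM IC50 than at SRM IC25 (0.49 ± 0.075 (SE), adjusted p = 0.000161) and than in UNT (0.36 ± 0.075 (SE), adjusted p = 0.00275), with no overlap. TYMS, which makes thymidylate, had 245, 265 and 318 CPM in the SRM IC50 libraries, 187.5, 234.5 and 238 CPM in SRM IC25, 178, 170.4 and 192 CPM in FPM IC50, 199.5, 192 and 202 CPM in FPM IC25 and 197, 229.6 and 239.8 CPM in UNT. The SRM IC50 values were the 3 highest; TYMS rose against SRM IC25 (0.32 ± 0.11 (SE), adjusted p = 0.0427) and gave 0.31 ± 0.11 with an adjusted p of 0.0707 against UNT.

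PCNA had 279, 313.5 and 407 CPM in the SRM IC50 libraries, 212, 268 and 284 CPM in SRM IC25, 217, 197 and 239 CPM in FPM IC50, 229, 208 and 242.5 CPM in FPM IC25 and 242, 313 and 334 CPM in UNT. Its groups were wide: SRM IC50 overlapped SRM IC25 and UNT and lay above both FPM groups. PCNA gave 0.39 ± 0.15 between the SRM doses (adjusted p = 0.0690) and 0.17 ± 0.15 at SRM IC50 against UNT (adjusted p = 0.527). RRM1, the large subunit of ribonucleotide reductase, was higher at SRM IC50 than at SRM IC25 (0.33 ± 0.067) and was lower at SRM IC25 and at FPM IC50 than in UNT (-0.28 ± 0.067 and -0.24 ± 0.068).

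Of the 9 cyclins and kinases of G1 and the G1/S step, 3 were higher and 2 lower at SRM IC50 than at SRM IC25, and 2 were higher and 1 lower than in UNT. Between the SRM doses this is 33.3% and 22.2%, against 13.7% and 13.2% of all genes tested. Against UNT it is 22.2% and 11.1%, where all genes tested had 7.96% and 9.59%, so the share lower is near that of all genes. CCND1 had 448, 413 and 344 CPM in the SRM IC50 libraries, 264, 244 and 226 CPM in SRM IC25, 226, 268 and 220.3 CPM in FPM IC50, 238, 268 and 223 CPM in FPM IC25 and 261, 254 and 221 CPM in UNT. The 3 SRM IC50 libraries were above the other 12, and CCND1 had the largest rise of the 50, against UNT (0.71 ± 0.12 (SE), adjusted p = 0.000323) and against SRM IC25 (0.72 ± 0.12 (SE), adjusted p = 0.000227). CCND3, another D cyclin, had 15.1, 17.3 and 20.2 CPM in the SRM IC50 libraries, 24.75, 28.8 and 26.5 CPM in SRM IC25, 20.45, 23.9 and 26.8 CPM in FPM IC50, 24.0, 21.9 and 27.4 CPM in FPM IC25 and 19.55, 20.8 and 22.1 CPM in UNT. It was lower at SRM IC50 than at SRM IC25 (-0.62 ± 0.12 (SE), adjusted p = 0.00152), and against UNT, where 1 SRM IC50 library lay inside the UNT range, it gave -0.26 ± 0.13 with an adjusted p of 0.200. CCND2, the remaining D cyclin, gave values between 0.015 and 0.18 over the 8 comparisons and was called in none.

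CDK2 had 64.45, 70.4 and 66.2 CPM in the SRM IC50 libraries, below all others, which ran from 79.5 to 98.2 CPM. It fell against SRM IC25 (-0.39 ± 0.081 (SE), adjusted p = 0.00201) and against UNT (-0.28 ± 0.081 (SE), adjusted p = 0.0262). CCNE2, a cyclin partner of CDK2, had 8.31, 8.245 and 7.74 CPM in the SRM IC50 libraries, 4.54, 5.83 and 5.97 CPM in SRM IC25, 9.06, 8.87 and 10.6 CPM in FPM IC50, 8.64, 8.49 and 9.71 CPM in FPM IC25 and 7.56, 6.52 and 7.195 CPM in UNT. The SRM IC25 libraries were the 3 lowest. CCNE2 was higher at SRM IC50 than at SRM IC25 (0.56 ± 0.13 (SE), adjusted p = 0.00441), at FPM IC25 than at SRM IC25 (0.71 ± 0.13 (SE), adjusted p = 0.000695) and at FPM IC50 than in UNT (0.42 ± 0.13 (SE), adjusted p = 0.0460). CCND1, CCND3, CDK2 and CCNE2 all have exons overlapping an opposite-strand gene. CDC25A, the phosphatase that activates CDK2, was higher at SRM IC50 than at SRM IC25 (0.39 ± 0.091) and than in UNT (0.32 ± 0.091). CCNE1 (cyclin E1), CDK4 and CDK6, the partners of the D cyclins, were called in no comparison; at SRM IC50 against UNT they gave -0.16, 0.059 and -0.079.

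**Figure D3:**
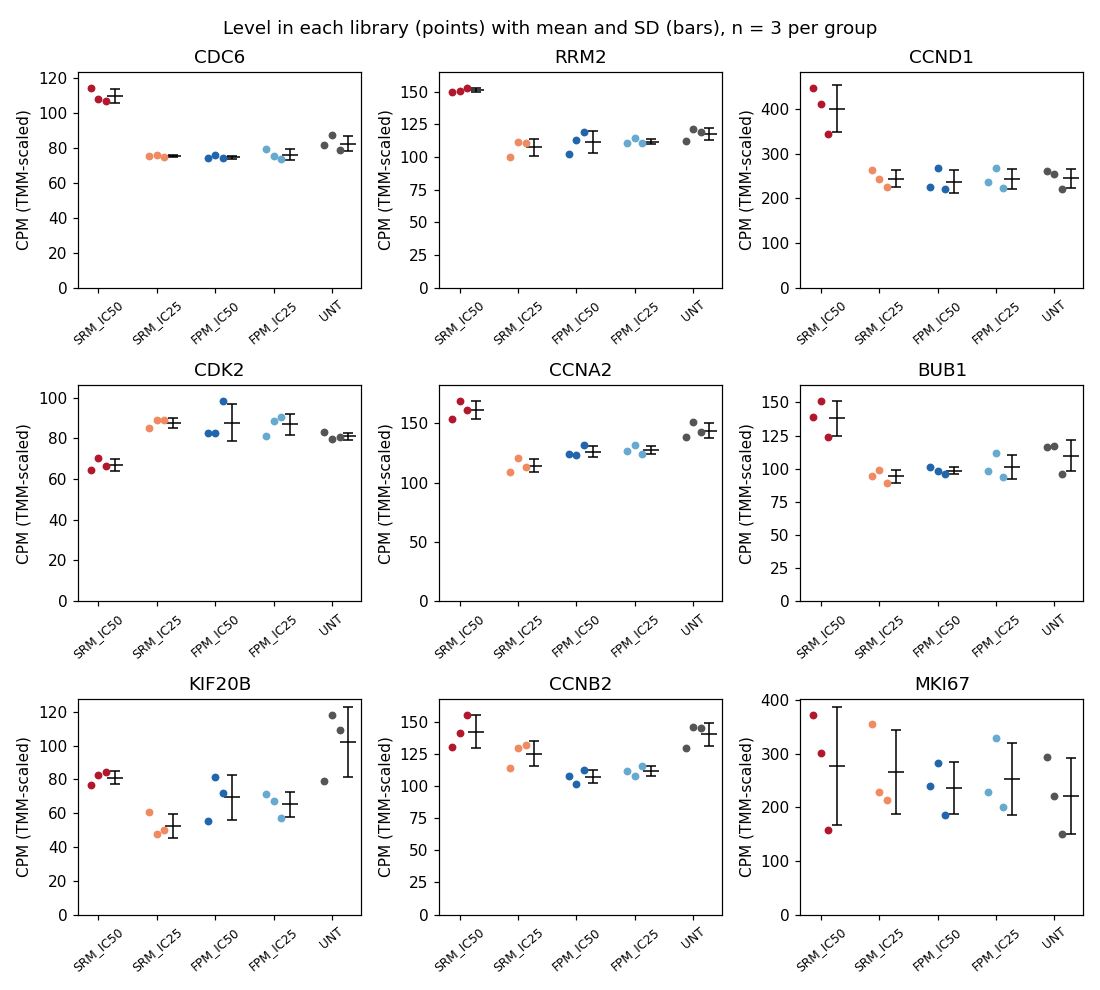
CPM (TMM-scaled, linear axis from 0) of 9 genes in each library (points), with the mean and SD of each group (bars, n = 3). CDC6, RRM2, CCND1, CCNA2 and BUB1 are highest and CDK2 lowest in the 3 SRM IC50 libraries; KIF20B is lowest in SRM IC25; MKI67 spreads from 157 to 373 CPM within SRM IC50 alone.

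None of the 4 transcription factors was called against UNT or between the SRM doses by edgeR, none had an unadjusted p under 0.05 there, and none was called by DESeq2. E2F1, an activator of S-phase genes, had 34.4, 35.2 and 44.1 CPM in the SRM IC50 libraries, 30.65, 35.05 and 38.1 CPM in SRM IC25, 31.7, 26.9 and 30.9 CPM in FPM IC50, 33.95, 30.35 and 33.0 CPM in FPM IC25 and 29.3, 32.1 and 35.4 CPM in UNT. FPM IC50 lay below SRM IC50 without overlap (-0.34 ± 0.12 (SE), adjusted p = 0.0272), the only call of this role in any comparison. E2F2, a related activator, had 11.7, 10.6 and 10.2 CPM in the SRM IC50 libraries, 10.2, 10.1 and 8.26 CPM in SRM IC25, 8.38, 9.32 and 9.505 CPM in FPM IC50, 9.47, 8.12 and 8.20 CPM in FPM IC25 and 11.05, 8.28 and 7.805 CPM in UNT. Its groups overlapped between SRM IC50 and UNT, and no comparison passed. FOXM1, an activator of mitotic genes, had 152.5, 147 and 122 CPM in the SRM IC50 libraries, 143, 127 and 129 CPM in SRM IC25, 124, 128 and 115 CPM in FPM IC50, 124.5, 131 and 119 CPM in FPM IC25 and 138, 118 and 109.6 CPM in UNT. FOXM1 gave 0.21 ± 0.10 at SRM IC50 against UNT (adjusted p = 0.192), and MYBL2, which acts with it, gave -0.011 ± 0.074 (adjusted p = 0.966).

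Of the 8 G2/M cyclins and kinases, 5 were higher at SRM IC50 than at SRM IC25 and 2 were higher than in UNT. As shares this is 62.5% and 25.0%, against 13.7% and 7.96% of all genes tested. CCNA2 (cyclin A2) had 153, 169 and 161 CPM in the SRM IC50 libraries, 109, 120.5 and 113 CPM in SRM IC25, 124, 123 and 131 CPM in FPM IC50, 127, 131.5 and 124 CPM in FPM IC25 and 139, 151 and 142 CPM in UNT. SRM IC50 held the 3 highest and SRM IC25 the 3 lowest libraries. CCNA2 rose between the SRM doses (0.49 ± 0.071 (SE), adjusted p = 9.21e-05), fell at SRM IC25 against UNT (-0.33 ± 0.071 (SE), adjusted p = 0.0259) and gave 0.16 ± 0.071 at SRM IC50 against UNT (adjusted p = 0.146). AURKA, the kinase of spindle poles, had 90.5, 100.4 and 111 CPM in the SRM IC50 libraries, 72.0, 79.2 and 72.0 CPM in SRM IC25, 72.7, 70.6 and 73.3 CPM in FPM IC50, 73.7, 74.2 and 73.1 CPM in FPM IC25 and 84.4, 85.2 and 86.8 CPM in UNT. The SRM IC50 libraries were again above the other 12; the rise against SRM IC25 passed (0.43 ± 0.078 (SE), adjusted p = 0.000646) and that against UNT was just outside the threshold (0.23 ± 0.078, adjusted p = 0.0507).

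AURKB, the kinase of the chromosomal passenger complex, had 90.5, 94.1 and 112 CPM in the SRM IC50 libraries, 72.1, 94.0 and 94.2 CPM in SRM IC25, 66.5, 62.5 and 71.0 CPM in FPM IC50, 71.6, 70.8 and 76.2 CPM in FPM IC25 and 68.5, 75.1 and 79.9 CPM in UNT. SRM IC50 was above UNT (0.40 ± 0.11 (SE), adjusted p = 0.0162) and overlapped SRM IC25 (0.18 ± 0.11, adjusted p = 0.246). CDK1, the kinase that starts mitosis, had 130.5, 148 and 167 CPM in the SRM IC50 libraries, 99.45, 112.5 and 113 CPM in SRM IC25, 111, 115 and 127 CPM in FPM IC50, 130.5, 124 and 120.3 CPM in FPM IC25 and 119, 155 and 157 CPM in UNT. It rose between the SRM doses (0.45 ± 0.11 (SE), adjusted p = 0.00621), while at SRM IC50 against UNT it gave 0.047 ± 0.11 (adjusted p = 0.850) where UNT ran from 119 to 157 CPM. CCNB1 and CDC25C, which activates CDK1, rose between the SRM doses (0.33 ± 0.090 and 0.35 ± 0.10), and CCNB2 (cyclin B2) passed in neither comparison (0.18 and 0.021). PLK1, the polo kinase of mitotic entry and spindle assembly, had 153, 143 and 128 CPM in the SRM IC50 libraries, 117, 126 and 123 CPM in SRM IC25, 111, 104 and 103.5 CPM in FPM IC50, 109.7, 115 and 109 CPM in FPM IC25 and 117, 105 and 98.3 CPM in UNT. The SRM IC50 libraries were the 3 highest, with 0.41 ± 0.083 (SE), adjusted p = 0.00227 against UNT and 0.21 ± 0.083 against SRM IC25 (adjusted p = 0.0738).

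Of the 5 genes of the spindle checkpoint and the anaphase-promoting complex, 3 were higher at SRM IC50 than at SRM IC25 and 2 were higher than in UNT. BUB1, a checkpoint kinase at kinetochores, had 139, 151 and 124 CPM in the SRM IC50 libraries, 94.2, 99.1 and 89.5 CPM in SRM IC25, 101, 98.2 and 95.6 CPM in FPM IC50, 98.3, 112 and 93.85 CPM in FPM IC25 and 116, 117 and 96.2 CPM in UNT. The SRM IC50 values were the 3 highest, and BUB1 was higher than in SRM IC25 (0.55 ± 0.097 (SE), adjusted p = 0.000537) and in UNT (0.33 ± 0.097 (SE), adjusted p = 0.0262). BIRC5 (survivin), a subunit of the passenger complex, had 163, 174 and 210.3 CPM in the SRM IC50 libraries, 121, 150.3 and 161 CPM in SRM IC25, 122, 113 and 132 CPM in FPM IC50, 128, 118 and 135 CPM in FPM IC25 and 129.5, 149 and 158.5 CPM in UNT. It passed against SRM IC25 (0.34 ± 0.12 (SE), adjusted p = 0.0472) and not against UNT (0.32 ± 0.12, adjusted p = 0.0824), although its SRM IC50 libraries were above all others. BUB1B, which holds back CDC20 until chromosomes are attached, had 143, 136 and 104 CPM in the SRM IC50 libraries, 100.4, 92.65 and 95.1 CPM in SRM IC25, 100.3, 90.95 and 85.5 CPM in FPM IC50, 95.1, 108 and 93.3 CPM in FPM IC25 and 114, 106 and 87.7 CPM in UNT. It was higher than in SRM IC25 (0.41 ± 0.12) and overlapped UNT. CDC20 rose against UNT (0.29 ± 0.082); UBE2C passed in neither comparison (0.13 against SRM IC25 and 0.17 against UNT).

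Of the 8 motor, kinetochore and chromosome genes, 4 were higher at SRM IC50 than at SRM IC25, and 3 were lower than UNT in each of the other particle groups. KIF20B, a kinesin of cytokinesis, had 76.55, 82.45 and 84.1 CPM in the SRM IC50 libraries, 60.8, 47.4 and 49.85 CPM in SRM IC25, 55.2, 81.5 and 71.7 CPM in FPM IC50, 71.3, 67.2 and 57.2 CPM in FPM IC25 and 78.8, 118 and 109 CPM in UNT. SRM IC25 was the lowest group, and 1 UNT library was well below the other 2 and inside the SRM IC50 range. KIF20B was lower than UNT at SRM IC25 (-0.96 ± 0.16 (SE), adjusted p = 0.0172), FPM IC50 (-0.55 ± 0.16 (SE), adjusted p = 0.0245) and FPM IC25 (-0.65 ± 0.15 (SE), adjusted p = 0.00745), and was higher at SRM IC50 than at SRM IC25 (0.62 ± 0.16 (SE), adjusted p = 0.00704). CENPE, the kinetochore kinesin, had 65.8, 63.9 and 69.7 CPM in the SRM IC50 libraries, 55.5, 39.0 and 46.8 CPM in SRM IC25, 43.5, 72.1 and 66.3 CPM in FPM IC50, 59.3, 56.4 and 51.1 CPM in FPM IC25 and 62.45, 102 and 90.7 CPM in UNT. The same UNT library was the lowest of its group. CENPE fell at SRM IC25 (-0.86 ± 0.18 (SE), adjusted p = 0.0257) and FPM IC25 (-0.62 ± 0.18 (SE), adjusted p = 0.0326) against UNT. At SRM IC50, KIF20B and CENPE had means of 81.05 and 66.5 CPM, below the 102.1 and 85.2 CPM of UNT, and neither was called.

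KIF11, the kinesin that separates spindle poles, had 129.5, 131 and 107 CPM in the SRM IC50 libraries, 89.9, 87.6 and 81.3 CPM in SRM IC25, 91.65, 102 and 90.7 CPM in FPM IC50, 101, 105.5 and 90.9 CPM in FPM IC25 and 111, 111 and 94.9 CPM in UNT. It was higher at SRM IC50 than at SRM IC25 (0.51 ± 0.098 (SE), adjusted p = 0.00103) without overlap. TOP2A, which untangles sister chromatids, had 596, 619.9 and 579.9 CPM in the SRM IC50 libraries, 460.1, 418 and 436 CPM in SRM IC25, 476, 518 and 478 CPM in FPM IC50, 490.2, 514 and 454 CPM in FPM IC25 and 594, 624 and 549 CPM in UNT. The SRM IC25 and FPM libraries lay below the UNT range. TOP2A was lower than UNT at SRM IC25 (-0.43 ± 0.083), FPM IC50 (-0.26 ± 0.083) and FPM IC25 (-0.28 ± 0.083) and higher at SRM IC50 than at SRM IC25 (0.45 ± 0.083). TPX2, an activator of AURKA, fell at FPM IC50 against UNT (-0.25 ± 0.075) and was higher at SRM IC50 than at SRM IC25 (0.30 ± 0.075). KIF20A, a kinesin of the central spindle, and CENPF, a kinetochore protein, passed in neither SRM comparison with UNT (0.11 and 0.035 at IC50, -0.009 and -0.33 at IC25).

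MKI67, which encodes the proliferation marker Ki-67, had 373, 302 and 157 CPM in the SRM IC50 libraries, 356, 228 and 214 CPM in SRM IC25, 239.9, 283 and 186.5 CPM in FPM IC50, 229.5, 329.9 and 201 CPM in FPM IC25 and 294, 221 and 151 CPM in UNT. The spread within SRM IC50, 2.37-fold from lowest to highest, and within UNT, 1.95-fold, exceeded every difference between group means, and MKI67 was called in no comparison; its largest value was 0.32 ± 0.30 at SRM IC50 against UNT (adjusted p = 0.546). Within groups the 50 genes deviated along their length. Over the 50 genes, Spearman's rho between a library's deviation from its group mean and gene length was -0.60 in SRM IC50 replicate 3 and -0.53 in UNT replicate 3, and 0.57 and 0.47 in replicate 1 of those groups. The other groups had such trends too, with 0.76 in FPM IC50 replicate 2, 0.64 in SRM IC25 replicate 1 and -0.61 in FPM IC25 replicate 3. These genes share the library and are described, not tested.

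Of the 3 inhibitors, 1 was called, and only against UNT at the FPM doses. CDKN1B (p27), an inhibitor of CDK2, had 66.7, 70.0 and 79.9 CPM in the SRM IC50 libraries, 69.25, 71.3 and 74.1 CPM in SRM IC25, 64.6, 63.1 and 67.4 CPM in FPM IC50, 65.65, 61.0 and 68.7 CPM in FPM IC25 and 72.2, 80.0 and 88.9 CPM in UNT. Both FPM groups lay below UNT without overlap, with -0.31 ± 0.091 (SE), adjusted p = 0.0342 at IC50 and -0.30 ± 0.091 (SE), adjusted p = 0.0340 at IC25, and the SRM groups gave -0.16 at IC50 and -0.17 at IC25, neither called. CDKN2A had 6.475, 6.11 and 12.3 CPM in the SRM IC50 libraries, 4.465, 7.04 and 4.88 CPM in SRM IC25, 5.065, 5.35 and 6.61 CPM in FPM IC50, 5.04, 4.595 and 5.915 CPM in FPM IC25 and 4.38, 5.40 and 7.68 CPM in UNT. A single SRM IC50 library stood at 12.3 CPM, and no comparison passed. RB1 had 51.2, 49.7 and 39.2 CPM in the SRM IC50 libraries, 45.1, 38.95 and 34.6 CPM in SRM IC25, 49.6, 53.7 and 45.0 CPM in FPM IC50, 41.3, 49.8 and 43.1 CPM in FPM IC25 and 49.0, 47.05 and 41.0 CPM in UNT. Its groups overlapped UNT throughout and no comparison passed.

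Against UNT, the lower SRM dose and both FPM doses had few calls among the 50, nearly all of them lower. At SRM IC25, 0 genes were higher and 5 lower (RRM1, CCNA2, KIF20B, CENPE and TOP2A), or 10.0% lower, against 0.989% and 3.38% of all genes. At an unadjusted p under 0.05, 6 were higher and 12 lower, and DESeq2 called 3 and 8. The 5 genes have a low GC content, 34.2% in KIF20B, 35.3% in CENPE, 39.1% in TOP2A, 42.1% in CCNA2 and 43.5% in RRM1. Over the 50 genes, Spearman's rho between this fold change and GC content was 0.83, as a description over genes that share libraries. With GC content corrected per library none of the 5 was called, KIF20B giving -0.62 (adjusted p = 0.246) and TOP2A -0.20 (adjusted p = 0.586). None of the 5 held without UNT replicate 2 or 3 or without SRM IC25 replicate 2 or 3, each of which left 0 calls among the 50.

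**Figure D4:**
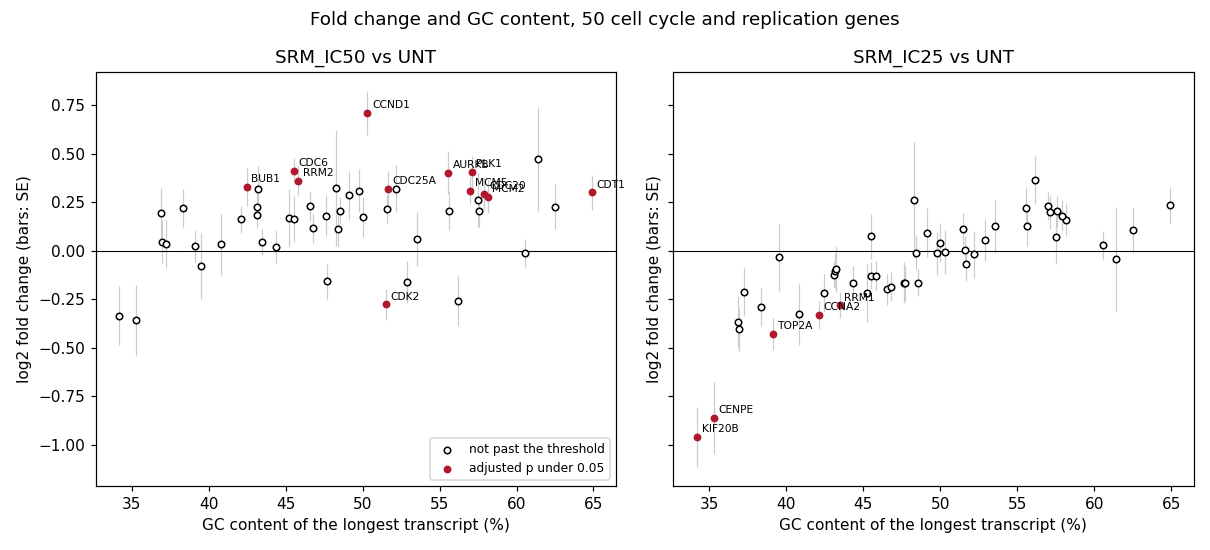
Log2 fold change against UNT (vertical axis, bars are SE) and GC content of the longest transcript (horizontal axis, %) of the 50 genes, at SRM IC50 (left) and SRM IC25 (right); red points have an adjusted p under 0.05. At SRM IC25 the called genes are at the GC-poor end, with KIF20B at 34.2% and -0.96, and at SRM IC50 the called genes run from BUB1 to CDT1 at 64.9% GC.

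At FPM IC50, 1 gene was higher than UNT (CCNE2) and 6 lower (RRM1, CCNB2, KIF20B, TPX2, TOP2A and CDKN1B), against 10.8% and 2.77% of all genes. Among the 4239 tested genes without a neighbour on the other strand within 5 kb, 45 were higher and 123 lower, and among the 17 such members 0 and 2. CCNB2 had 107.5, 102 and 112 CPM at FPM IC50, 112, 108 and 116 CPM at FPM IC25 and 129.8, 146 and 145 CPM in UNT. Both FPM groups were below UNT without overlap (-0.39 ± 0.087 (SE), adjusted p = 0.00446 at IC50 and -0.33 ± 0.086 (SE), adjusted p = 0.0155 at IC25). At FPM IC25, 0 genes were higher and 5 lower (CCNB2, KIF20B, CENPE, TOP2A and CDKN1B), or 10.0% lower, against 10.7% and 3.51% of all genes. Of the 4239 genes without such a neighbour, 54 were higher and 172 lower, and of the 17 members 0 and 2. At an unadjusted p under 0.05, 1 was higher and 10 lower, and DESeq2 called 0 and 7. The median over the 50 was -0.13 at FPM IC50 and -0.10 at FPM IC25, against 0.006 and -0.002 over all genes. CCNB2 at FPM IC50 was the only one of these 12 calls that stood in every alternative run. With GC content corrected, 3 of the 7 calls at FPM IC50 and 1 of the 5 at FPM IC25 stood. Over the 50 genes, Spearman's rho between fold change and GC content was 0.39 at FPM IC50 and 0.415 at FPM IC25. Without UNT replicate 2, 1 call was left at FPM IC50 and 0 at FPM IC25; without FPM IC50 replicate 1, 2 or 3, 2, 3 and 1 were left; without FPM IC25 replicate 1, 2 or 3, 2, 2 and 3 were left at that dose. Without UNT replicate 3, 4 were left at FPM IC50 and 3 at FPM IC25.

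Between the particles, the IC25 groups differed in 2 of the 50 genes. At FPM IC25, CCNE2 was higher and CDT1 lower (-0.30 ± 0.091 (SE), adjusted p = 0.0436) than at SRM IC25, 2.00% each, against 9.89% and 0.605% of all genes (19 higher and 43 lower of the 4239 without an opposite-strand neighbour). The doses were 0.00062 and 0.003 µg/mL. The IC50 groups, at 1.4 and 5.9 µg/mL, had the most calls of the 8 comparisons. At FPM IC50, 2 genes were higher than at SRM IC50 (CCND3 and CDK2) and 33 lower, or 4.00% and 66.0%, against 23.2% and 16.2% of all genes. The median was -0.33 over the 50 and 0.016 over all genes. All 9 helicase and licensing genes, all 4 of DNA synthesis, all 8 G2/M cyclins and kinases and all 5 checkpoint genes were lower, with 4 of 8 motor genes, 2 of 9 G1 genes (CCND1 and CDC25A) and E2F1.

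The largest of these were CCND1 (-0.76 ± 0.12 (SE), adjusted p = 6.23e-05), TYMS (-0.61 ± 0.11 (SE), adjusted p = 0.000378), PCNA (-0.61 ± 0.15 (SE), adjusted p = 0.00382) and GINS2 (-0.61 ± 0.13 (SE), adjusted p = 0.00109). Of the 17 genes without a neighbour on the other strand within 5 kb, 12 were lower and none higher, against 900 lower and 629 higher of the 4239 such genes among all tested. With GC content corrected 34 of the 35 calls stood, and 23 stood in every alternative run. The 15 genes with no call between the IC50 groups included the inhibitors CDKN1B, CDKN2A and RB1 and the markers MKI67, CENPE, CENPF and KIF20B.

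**Figure D5:**
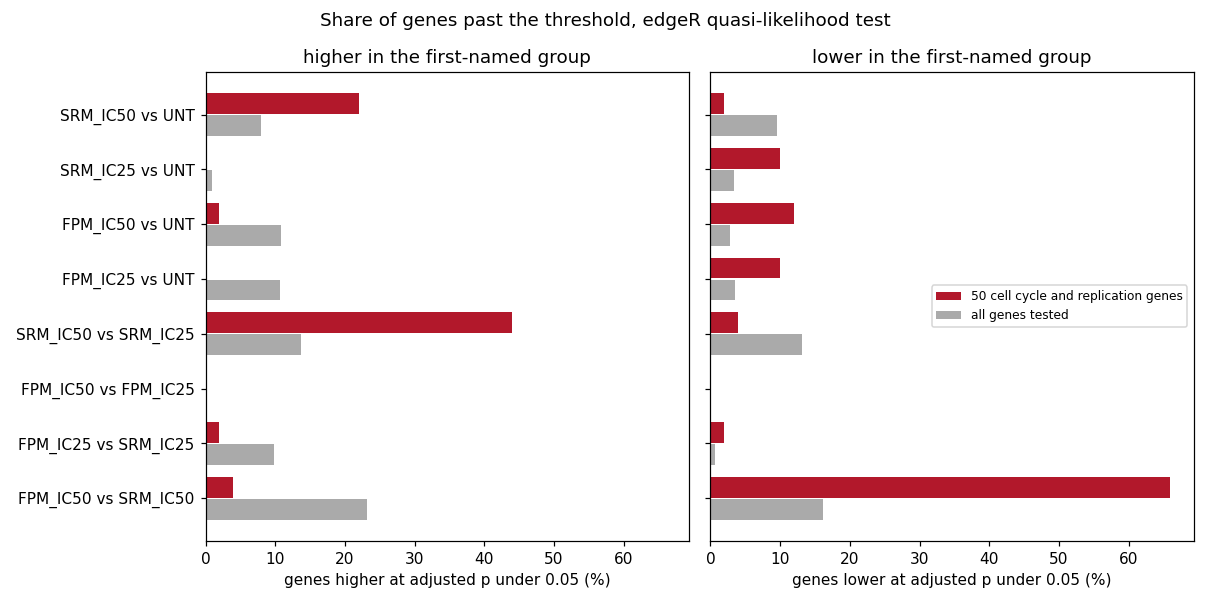
Share of the 50 genes (red) and of all 19012 genes tested (grey) that were higher (left) or lower (right) in the first-named group at an adjusted p under 0.05, for 8 comparisons; both axes are linear from 0. The 50 exceed the background most at SRM IC50 against SRM IC25 (44.0% against 13.7% higher) and at FPM IC50 against SRM IC50 (66.0% against 16.2% lower).

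Other genes of the same processes were read from 4 further lists of 120 genes, all tested. At SRM IC50 against UNT, 8 of 41 other replication genes were higher (19.5%, against 7.96% of all genes), among them UHRF1, which maintains DNA methylation at forks (0.43 ± 0.10), MCM10 (0.41 ± 0.088), the polymerase epsilon subunit POLE2 (0.37 ± 0.093) and the origin recognition subunit ORC1 (0.36 ± 0.095). Of 48 other mitotic genes 2 were higher (4.17%, below that share of all genes), NCAPH and CDCA5 (0.29 ± 0.084 and 0.29 ± 0.096), and 1 lower, PBK (-0.41 ± 0.11). Of 16 other CDK inhibitors and regulators 1 was higher and 2 lower (6.25% and 12.5%), near the 7.96% and 9.59% of all genes. The inhibitor CDKN1C (p57) was lower (-1.59 ± 0.19 (SE), adjusted p = 2.04e-05), as was SKP2, which marks p27 for destruction (-0.38 ± 0.080). WEE1, the kinase that restrains CDK1, was higher (0.32 ± 0.068). Of 15 other E2F, RB and DREAM complex genes only E2F3 was called, as higher (0.22 ± 0.072), which is 6.67% against 7.96% of all genes.

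Between the SRM doses, 17 of 41 replication genes and 23 of 48 mitotic genes were higher at IC50 (41.5% and 47.9%, against 13.7% of all genes), led by POLE2 (0.68 ± 0.093) and the cohesin protector SGO2 (0.59 ± 0.14), with CDKN1C again lower (-1.65 ± 0.19). At FPM IC50 against SRM IC50, 26 of 41 and 24 of 48 were lower, where 16.2% of all genes were, with CLSPN (claspin) at -0.76 ± 0.15, and CDKN1C was higher (1.71 ± 0.19). Against UNT, the mitotic list had 14 genes lower at FPM IC50, 10 at FPM IC25 and 10 at SRM IC25, where 1 of each list was higher, and the replication list had 7, 6 and 3 lower. These are 29.2%, 20.8% and 20.8% of the mitotic list and 17.1%, 14.6% and 7.32% of the replication list, against 2.77%, 3.51% and 3.38% of all genes. SGO2 (-0.58 ± 0.14 at FPM IC50 and -0.76 ± 0.14 at SRM IC25) and DBF4, the activator of the CDC7 kinase (-0.40 ± 0.090 and -0.43 ± 0.089), were among them. With GC correction no gene of all tested was called at SRM IC25 against UNT, so none of these SRM IC25 calls stood there. Leaving out 1 library left 0 to 793 of all genes called in that comparison. Of the 120 genes, 21 have no neighbour on the other strand within 5 kb. Of these 21, 1 was lower than UNT at FPM IC50 and 0 at FPM IC25, and 0 were higher at either dose. Among all 4239 such genes, 123 and 172 were lower. At FPM IC50 against SRM IC50, 8 of the 21 were lower and 1 higher, against 900 and 629 of the 4239.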

How the data were processed

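Polyadenylated RNA of 15 libraries was prepared with a directional kit, per the labels' protocols. The deposited counts are whole reads per gene, made by the authors with HISAT2 2.2.1 on GRCh38, SAMtools 1.10 and featureCounts of Subread, with FastQC 0.11.7 and DESeq2 also named, per the submitters' processing notes. For the annotation release, the strand setting and multiply mapped reads, nothing is given in the sources used here. The deposited FPKM table is those counts divided by gene length and library total (largest difference 5e-07), and was used only to compare genes and as an alternative. Coordinates, transcript GC content and opposite-strand genes came from GENCODE on GRCh38, promoter windows from RefSeq on GRCh38.p14.

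The test of counts was edgeR's (version 4.0.16, R 4.3.3; TMM, filterByExpr, robust quasi-likelihood fit of 5 group means to all 15 libraries), adjusted by Benjamini-Hochberg over 19012 genes; the steps were tested on simulated data. Groups came from the sample titles. Total counts of 9.34 to 58.2 M put a floor of 3 counts at 0.0515 to 0.321 CPM; floors cover counting error only, and each replicate pair differed by more than sampling noise. Same-numbered libraries deviated together in all 3 pairs (every correlation over 0.1) only for FPM IC50 and FPM IC25 (correlations 0.164 to 0.240), where the number was treated as a possible pairing. The labels do not say that a number marks a shared culture or day. The alternatives tried were no filter, DESeq2 1.42.0 or only its size factors, a replicate block, a GC correction with and without that block, limma 3.58.1 on log2(FPKM + 1) or log2(FPKM + 0.1) with FPKM of at least 1 in 3 libraries or no filter, a fit of the 2 groups alone, and leaving out each library. The members and lists were chosen with earlier results of these data known. All 50 members are accounted for by role; library values are given for the 3 genes of each role with the largest range of group means (mean of at least 1 CPM) and for MKI67, PCNA, CDK1, CCND1, CDKN1B, RB1 and CDKN2A, and for CDK2, CCNB2, PLK1 and TOP2A, which were added after their values were seen. Of each other list, up to 4 called genes with the largest change could be named.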

Additional observations from a re-analysis of the deposited data

Results flagged for a closer look

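The difference between IC50 and IC25 was itself different in SRM and FPM for 17 of the 50 genes, by an interaction contrast in the edgeR fit of all 15 libraries (adjusted p under 0.05 over 19012 genes), added after the other results were known. It was larger for SRM in 15 of them and smaller in 2, against 6.59% and 8.01% of all genes tested. Each value is the SRM dose difference minus the FPM dose difference on the log2 scale. In licensing and the helicase it was 0.57 for CDC6, 0.38 for MCM6 and 0.37 for MCM4. In nucleotide supply it was 0.49 for RRM2 and 0.38 for RRM1. Among G1 genes it was 0.74 for CCND1 and 0.42 for CDC25A, and it was negative for CCND3 (-0.58) and CDK2 (-0.40). In G2/M it was 0.51 for CCNA2, 0.405 for CCNB1, 0.54 for CDK1 and 0.46 for AURKA. It was 0.59 for BUB1, 0.57 for KIF11, 0.33 for TPX2 and 0.44 for TOP2A. The dose ranges differ between the particles (0.003 and 5.9 µg/mL in SRM, 0.00062 and 1.4 µg/mL in FPM), so particle and mass dose cannot be told apart in these values.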

How the results depend on the processing

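No call among the 50 genes changed direction under any alternative. At SRM IC50 against UNT the 12 calls became 22 with a replicate block, 24 with the block and GC correction, 19 with log2(FPKM + 0.1) and 4 with the 2 groups alone, and 7 to 12 when 1 library was left out. At SRM IC25 against UNT the 5 became 11 with DESeq2, 11 with the block, 0 with GC correction with or without the block, 0 with unfiltered log2(FPKM + 1), 0 with the 2 groups alone and 0 to 6 without 1 library; the 831 genes of all tested became 1960, 2718, 0 with GC correction, 6 with GC correction and block, 57, 0 and 0 to 793 in the same order. At FPM IC50 against UNT the 7 became 17 with the block, 1 with the 2 groups alone and 1 to 10 without 1 library. The count was 3 with GC correction (1 higher and 2 lower) and 2 in each of the 3 FPKM fits (1 higher and 1 lower). At FPM IC25 against UNT the 5 became 9 with the block (4079 in place of 2693 over all genes), 3 with the 2 groups alone and 0 to 6 without 1 library. The count was 2 with GC correction (1 higher and 1 lower), where 1 of the 5 calls stood. It was 3 with either filtered FPKM fit (1 higher and 2 lower) and 1 with the unfiltered one. At FPM IC25 against SRM IC25 the 2 became 1 with DESeq2 size factors, no filter, GC correction with or without the block, or the 2 groups alone, and 1 to 4 without 1 library. Between the FPM doses the 2 genes of all tested became 35 with DESeq2, 116 with no filter, 34 with the replicate block, 4 with GC correction, 36 with GC correction and block, 0 with either filtered FPKM fit, 26 with the unfiltered one, 0 with the 2 groups alone and 0 to 2 without 1 library. Fewer calls in fits of 2 groups go with fewer libraries; the other causes were not tested.

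Between the SRM doses (24 calls) and at FPM IC50 against SRM IC50 (35), the count stayed within 1.5 times under every alternative, at 19 to 23 and 29 to 34 without 1 library. In the other 7 comparisons same-numbered libraries did not all deviate together: the lowest same-number correlation was 0.050 or less in each, while the highest was 0.368 (replicate 3 at SRM IC50 and UNT), so the block there is only an alternative. The interaction contrast was run under 1 setting. The SE at SRM IC50 against UNT was 0.14 for E2F2, 0.27 for CDKN2A and 0.30 for MKI67, whose libraries differed within groups, against a median difference of 0.20 over the 50.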
